A study of Mus musculus with 24 samples.

Results

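The Errfi1 locus of the mouse was described as the set of chromatin immunoprecipitation (ChIP-seq) peaks that overlap a 120 kb window on chromosome 4, chr4:150180000-150300000 in build mm9. A peak is an interval in which sequenced fragments pulled down with an antibody pile up. All peaks of the 14 deposited lists that overlap the window were taken. They numbered 50 of 26332, and 38 of the 50 came from a single list, the Foxa3 list of adult hepatocytes. The window was selected on peak counts of the hepatocyte Foxa3 list: it holds Errfi1 and the run with the most hepatocyte Foxa3 peaks outside blocks shared between hepatocyte lists. The number of hepatocyte Foxa3 peaks there is therefore a description and carries no test.

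The cells were of C57BL/6 mice. Induced hepatocyte-like (iHep) cells came from fibroblasts of embryos at 13.5 days post coitum, infected with Hnf4alpha together with Foxa1 in line 4a1, Foxa2 in line 4a2 or Foxa3 in line 4a3. The hepatocytes came from adult livers at 10 weeks of age. Every iHep line therefore carries introduced Hnf4alpha, and in each the introduced Foxa factor is also the factor of its antibody, so line, factor and antibody cannot be told apart. Each line had 3 libraries with its Foxa antibody, of which 2 carry EGS in the title and 1 does not (called non-EGS here, and the labels do not spell out EGS). A Flag antibody was used in 1 library each of lines 4a2 and 4a3. Hepatocytes gave 1 EGS library per Foxa antibody, all of preparation 4, and contrasts among them rest on single libraries. The sources used here give neither the promoter that drives the introduced genes nor whether the numbered cultures are separate infections, so p-values here reflect only how these libraries vary, and that variation could be technical. Peak lists hold no expression values, so the identity of the cells was not checked against marker genes.

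Errfi1, also called Mig-6 or RALT, encodes a cytoplasmic adaptor that binds the kinase domain of the EGF receptor and its relatives and inhibits them, and it is induced by growth factors, hormones and stress. In liver it is known as a feedback inhibitor of EGF receptor signalling in hepatocytes. The Foxa proteins are forkhead transcription factors able to bind closed chromatin at liver enhancers, and Hnf4alpha is a nuclear receptor that is needed for the hepatocyte programme. In the RefSeq gene order of build GRCm38.p6 the protein-coding neighbours of Errfi1 are Slc45a1, a sugar transporter gene, and Park7, a gene known from inherited Parkinson disease. The noncoding RNA gene 1700045H11Rik overlaps Errfi1 in that annotation. The files use mm9, so the start, exons and introns of Errfi1 were not placed on the peaks, and whether a peak is promoter, exonic or intronic was not analysed here.

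RefSeq lists 2 promoters for Errfi1 in GRCm38.p6, both on the plus strand, each given from 250 bases before to 50 bases after the start of transcription. They are printed because Errfi1 gives the window its name and the pair differ in base composition. That the mm9 window holds Errfi1 comes from the way the window was defined and was not checked against mm9 annotation. Capitals mark each CG dinucleotide.

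Errfi1 upstream promoter: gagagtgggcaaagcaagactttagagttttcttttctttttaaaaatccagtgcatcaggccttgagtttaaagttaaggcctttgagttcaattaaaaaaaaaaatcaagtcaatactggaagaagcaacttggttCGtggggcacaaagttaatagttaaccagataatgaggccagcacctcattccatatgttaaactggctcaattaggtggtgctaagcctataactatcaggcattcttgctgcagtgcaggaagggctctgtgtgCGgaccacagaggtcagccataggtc

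Errfi1 downstream promoter: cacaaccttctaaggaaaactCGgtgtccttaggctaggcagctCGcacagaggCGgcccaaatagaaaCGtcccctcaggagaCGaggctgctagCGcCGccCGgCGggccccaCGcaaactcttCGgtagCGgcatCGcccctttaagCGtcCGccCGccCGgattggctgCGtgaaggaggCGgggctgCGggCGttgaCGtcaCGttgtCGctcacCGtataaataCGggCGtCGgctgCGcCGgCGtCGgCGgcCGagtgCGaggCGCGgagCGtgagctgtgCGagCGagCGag

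The upstream promoter is 42% G or C and has 2 CG dinucleotides, with lower GC content in 14.1% of the 32851 promoters of the table. The downstream promoter is 66.7% G or C and has 41 CG dinucleotides, more than 96.5% of those promoters. Forkhead words were searched on both strands. The word TGTTTAC is in 3.65% of all promoters of this length, the word TATTTAC is in 3.04% of them and the word TGTTTGC is in 5.07%. None of the 3 contains another, 11.2% of promoters hold at least 1, and neither Errfi1 promoter does. The Hnf4alpha word CAAAGTCCA is in neither and in 0.475% of all promoters. These are descriptions of letters in these windows only.

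In hepatocytes the Foxa3 antibody gave 38 peaks in the window, and the Foxa1 and Foxa2 antibodies gave 0. The 38 were 3.48% (exact 95% Clopper-Pearson interval 2.48 to 4.75) of the 1091 peaks of the Foxa3 list. The Foxa1 list held 0 of 166 peaks here, which by the limit of 3 counts for a count of 0 allows up to 1.81%, and the Foxa2 list 0 of 244, which allows up to 1.23%. At the share of the Foxa3 list these lists would have held 5.78 and 8.50 peaks. These intervals and limits reflect counting error alone. Peaks that lie side by side are not independent, so the intervals are too narrow. The share of the Foxa3 list is the value that chose the window, so the 5.78 and 8.50 lean high and are no test of the counts of 0.

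The 38 peaks formed 1 run from 150226804 to 150249468, 22.7 kb long, and no other hepatocyte peak lay in the window. The run opened with an isolated peak of 142 bp at chr4:150226804-150226945 (score 5.94, rank 1026 of 1091), followed by the widest gap of the run, 2380 bp. The score is a number that the authors gave each peak. Its scale is not stated, so it is used for ranks inside 1 list. The other 37 peaks stood close together. The median of the 37 gaps was 121 bp, the smallest was 55 bp, and 22 gaps were under 150 bp. The peaks covered 11608 bp, or 51.2% of the run. When peaks within 1 kb were joined, the 38 became 2 regions.

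**Figure D1:**
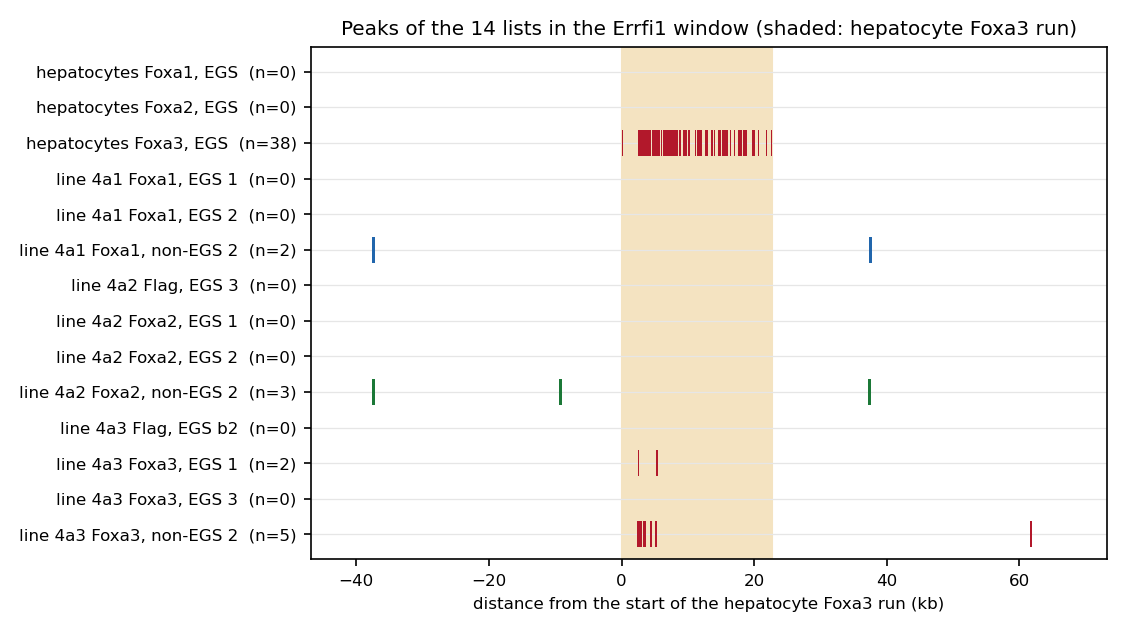
Peaks of each of the 14 lists (rows, with the number of peaks) in the 120 kb window, by distance in kb from the start of the hepatocyte Foxa3 run, which is shaded; narrow peaks are drawn wider than they are so that they can be seen. The 38 hepatocyte Foxa3 peaks fill the run, iHep Foxa3 peaks lie near its start, and Foxa1 and Foxa2 peaks of iHep cells lie outside it.

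Peaks of the run were wider and ranked higher than the rest of their list. Widths ran from 101 to 1357 bp with a median of 235 bp, against a median of 135 bp in the other 1053 peaks. The widest, chr4:150229918-150231274, measured 1357 bp and scored 19.4 (rank 17). The highest score, 20.6, belonged to chr4:150233857-150234203, which ranked 13 in the list. Of the 8 hepatocyte Foxa3 peaks over 1 kb wide, 2 lay here. The last peak, chr4:150249302-150249468, was 167 bp wide and scored 7.72.

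Scores in the run went from 5.44 to 20.6 with a median of 11.7, against 9.27 for the other peaks of the list, and the highest score of the list, 28.1, lay elsewhere. The median percentile of the 38 peaks within the list was 78.8. In the upper 50% of the list stood 26 of them, in the top decile 8, and in the bottom decile 2. Scores repeat between peaks. The 38 peaks took 25 distinct values, and 5 peaks shared the score 12.7, so ranks are coarse. Width and rank come from the list that chose the window and are given without a test.

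The covered share of the run was highest between 5 and 10 kb from its start. There, 9 peaks covered 76.1% of the bases with a median score of 12.3. The first 5 kb held 6 peaks over 48.4% of the bases (median score 12.0), the stretch from 10 to 15 kb held 9 over 48.3% (12.7), and that from 15 to 20 kb held 10 over 43.7% (11.2). The remaining 2.67 kb of the run held 4 peaks over 29.3% with a median score of 8.19. Peaks were thus found along the whole run. The last bin, which is the shortest, had the lowest covered share and the lowest median score.

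**Figure D2:**
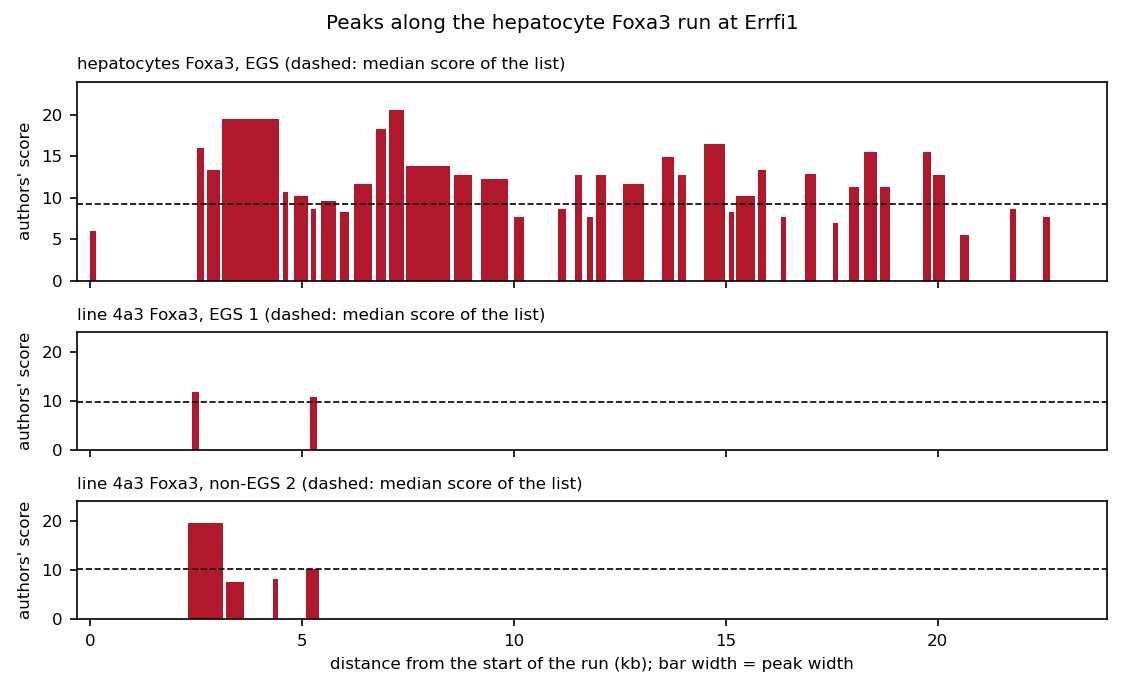
Authors' score (y axis) of each peak along the run (x axis, kb from its start; bar width is peak width) in the hepatocyte Foxa3 list and the 2 iHep Foxa3 lists with peaks there; the dashed line is the median score of each list. Hepatocyte peaks extend over all 22.7 kb, and the iHep Foxa3 peaks lie between 2.32 and 5.41 kb; scores are not comparable between panels.

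The Errfi1 run held more peaks than the runs that followed it. Joining peaks within 3 kb, the next hepatocyte Foxa3 runs outside the shared blocks held 29 peaks (chr14:41917905-41940119), 26 (chr5:90890065-90906699) and 23 (chr4:49547681-49562222). The Errfi1 run led with 38 at joining distances of 2.5, 3, 5 and 10 kb. Having the most peaks is the property that chose the window, so this lead carries no test. The widest gap of the run is 2380 bp, below each of these distances, so its own count could not change with them. The run lay 46.8 kb inside the start of the window and 50.5 kb inside its end. Outside the window the nearest hepatocyte Foxa3 peak lay 9323 kb before it, and none lay after it on the chromosome, so no hepatocyte Foxa3 peak sat near the edge.

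In total 13 runs of at least 10 hepatocyte Foxa3 peaks lay outside the shared blocks. None of the 13 held a hepatocyte Foxa1 or Foxa2 peak, so the missing Foxa1 and Foxa2 peaks were not particular to Errfi1. Blocks with at least 3 peaks in 2 or more hepatocyte lists were left out beforehand, which favours this by construction. Among the other 12 runs the peaks covered between 17.3% and 83.5% of the run (median 32.1%). The 51.2% at Errfi1 lies within that range. The median percentile of the peaks went from 28.2 to 78.8 among these 12 runs. The 78.8 at Errfi1 equals the highest of them, so a rank this high was not particular to Errfi1.

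In iHep cells the window held 12 peaks, from 4 of the 11 lists. The non-EGS lists gave 2 peaks for Foxa1 (of 3431), 3 for Foxa2 (of 11408) and 5 for Foxa3 (of 4317). Foxa3 EGS replicate 1 gave 2 (of 1246). The other 7 lists gave 0, namely both Foxa1 EGS lists, both Foxa2 EGS lists, Foxa3 EGS replicate 3 and both Flag lists. Whether input DNA of these cells piles up here was not tested, since no file of the 10 input libraries was used.

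Foxa3 peaks of line 4a3 lay inside the hepatocyte run, apart from 1. In the non-EGS list the strongest was chr4:150229124-150229950, 827 bp wide, with a score of 19.6 (rank 245 of 4317, percentile 94.0). Next along the run came chr4:150230018-150230444 (427 bp, score 7.63, percentile 16.4) and chr4:150231116-150231242 (127 bp, score 8.10, percentile 23.0). The fourth was chr4:150231905-150232214 (310 bp, score 10.2, percentile 48.8). The fifth, chr4:150288412-150288544 (133 bp, score 10.2), lay 38.9 kb past the end of the run and overlapped no peak of another list.

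Both window peaks of Foxa3 EGS replicate 1 fell within non-EGS peaks over their full width. They were chr4:150229208-150229382 (175 bp, score 11.8, rank 305 of 1246, percentile 72.2) and chr4:150231989-150232149 (161 bp, score 10.8, percentile 63.0). The 2 of 2 overlaps compare with 51.0% of all peaks of this list that overlap a Foxa3 non-EGS peak. Both also overlapped a hepatocyte Foxa3 peak, against 11.0% of that whole list. Of the 5 non-EGS Foxa3 peaks, 4 overlapped a hepatocyte Foxa3 peak, against 4.47% of the whole non-EGS list. Overlap was counted from 1 shared bp, and the hepatocyte peaks cover 51.2% of the bases of the run. The window was chosen for its many hepatocyte Foxa3 peaks, which favours overlap with them here. The whole-list shares of 11.0% and 4.47% are therefore not a like baseline, and no conclusion is drawn from the contrast.

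The 6 iHep Foxa3 peaks in the run all lay between 2.32 and 5.41 kb from its start, a stretch of 3.09 kb. The 17.3 kb of the run after this stretch held 31 hepatocyte Foxa3 peaks and no iHep peak, and the 2.32 kb before it held 1 and none. Counted from hepatocytes, 5 of the 38 Foxa3 peaks (13.2%, exact interval 4.41 to 28.1) overlapped a Foxa3 peak of line 4a3. Over the whole hepatocyte Foxa3 list the share was 25.8%, and outside the window it was 26.2% (276 of 1053, 23.6 to 29.0). The intervals overlap, and no test was made between them. The 5 came from the non-EGS list. EGS replicate 1 alone overlapped 2 of the 38 (5.26%).

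The hepatocyte peaks that were also found in line 4a3 scored between 8.59 and 19.4, with a median of 13.3. The other 33 scored between 5.44 and 20.6, with a median of 11.7. The ranges overlap, and the highest-scoring hepatocyte peak of the run, 1.64 kb past the last iHep peak, was not among those shared. After joining peaks within 1 kb, 1 of the 2 hepatocyte regions (50%) overlapped line 4a3, since the joined region spans nearly the whole run. Among the other 12 large hepatocyte runs, 3 held a line 4a3 Foxa3 peak. In 2 of these runs, 76.9% and 80.0% of the hepatocyte peaks were overlapped, and in the other 10 runs 0% were.

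Merging all lists gave 39 regions in the window, of which 35 came from 1 list, 2 from 2 lists and 2 from 3 lists. The regions found in 3 lists were chr4:150229124-150231274 (2151 bp, 7 peaks) and chr4:150231607-150232214 (608 bp, 4 peaks). Both joined the hepatocyte Foxa3 list with the non-EGS and the EGS replicate 1 Foxa3 lists of line 4a3. No region of the window joined Foxa3 with Foxa1 or Foxa2.

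Foxa1 and Foxa2 peaks of iHep cells lay on both sides of the run and not in it. The run takes only 18.9% of the length of the window, and whether so few peaks avoid it was not tested. None of the 38 hepatocyte Foxa3 peaks overlapped a peak of line 4a1 or of line 4a2 (0 of 38 for each, which allows a share of up to 7.89%). Over the whole hepatocyte list the shares were 5.59% for line 4a1 and 3.67% for line 4a2, so a count of 0 in 38 does not differ detectably from them. The Foxa1 non-EGS list had chr4:150189231-150189638 (408 bp, score 13.1, rank 2838 of 3431) and chr4:150264123-150264535 (413 bp, score 19.6, rank 1763). The Foxa2 non-EGS list had chr4:150189208-150189661 (454 bp, score 23.7, rank 4778 of 11408), chr4:150217348-150217787 (440 bp, score 14.2, rank 8363) and chr4:150263993-150264466 (474 bp, score 26.8, rank 4111). Their percentiles went from 17.3 to 48.5 for Foxa1 and from 26.4 to 63.9 for Foxa2.

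Foxa1 and Foxa2 shared the outer pair of these sites. The first lay 37.1 kb before the run and the second 14.5 kb after it, and the peaks shared 408 and 344 bp. So 2 of 2 Foxa1 peaks overlapped a Foxa2 peak, against 71.6% of the whole Foxa1 non-EGS list. From the other side 2 of 3 Foxa2 peaks overlapped a Foxa1 peak, against 21.5% of the whole Foxa2 non-EGS list. The Foxa2 peak without a partner lay 9.02 kb before the run and had the lowest score of the 3. Widths of these 5 peaks (408 to 474 bp) were near the list medians of 417 bp for Foxa1 and 458 bp for Foxa2.

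**Figure D3:**
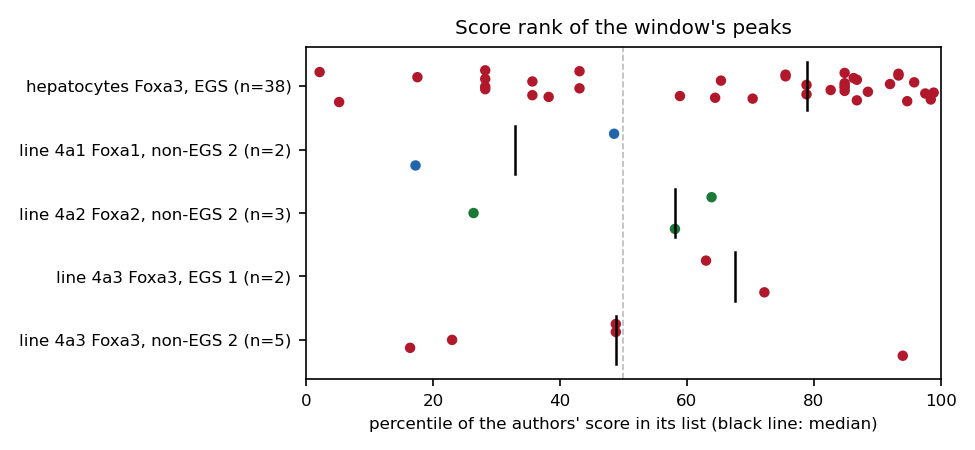
Percentile of the authors' score within its own list (x axis) for every window peak of the 5 lists that hold any, with the median as a black line and the middle of each list dashed. Hepatocyte Foxa3 peaks spread from 2.15 to 98.9 with a median of 78.8, and the iHep peaks from 16.4 to 94.0.

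Measured against list length, 2 of the 3 Foxa3 libraries of line 4a3 exceeded all Foxa1 and Foxa2 libraries of iHep cells and 1 held no peak. Window peaks per 1000 peaks of the list were 1.61 in Foxa3 EGS replicate 1, 1.16 in Foxa3 non-EGS and 0 in Foxa3 EGS replicate 3. They were 0.583 in Foxa1 non-EGS, 0.263 in Foxa2 non-EGS and 0 in the 4 Foxa1 and Foxa2 EGS lists. The groups overlapped at 0. The mean was 0.921 ± 0.828 (SD, n = 3) for Foxa3 and 0.141 ± 0.241 (SD, n = 6) for the others. Here n counts libraries, and each Foxa factor is represented by 1 line. In lines 4a1 and 4a2 the non-EGS library carries the same culture number as 1 of the EGS libraries. The libraries are therefore not known to be independent, although the permutation test exchanges them as if they were. The difference of 0.780 did not pass the threshold (exact permutation test, two-sided, p = 0.083, and the smallest p that 84 assignments allow is 0.012). By covered length the window took 0.101% ± 0.088 (SD, n = 3) of the Foxa3 lists and 0.013% ± 0.023 (SD, n = 6) of the others, a difference of 0.088 percentage points (exact permutation p = 0.083). Adjusted by Benjamini-Hochberg over these 2 tests, both p-values remained 0.083. The window was chosen on hepatocyte Foxa3 peaks. Over that whole list, 25.8% of peaks overlapped line 4a3, against 5.59% for line 4a1 and 3.67% for line 4a2. The choice of window may thus favour the Foxa3 lists before any test, and these p-values carry that lean.

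**Figure D4:**
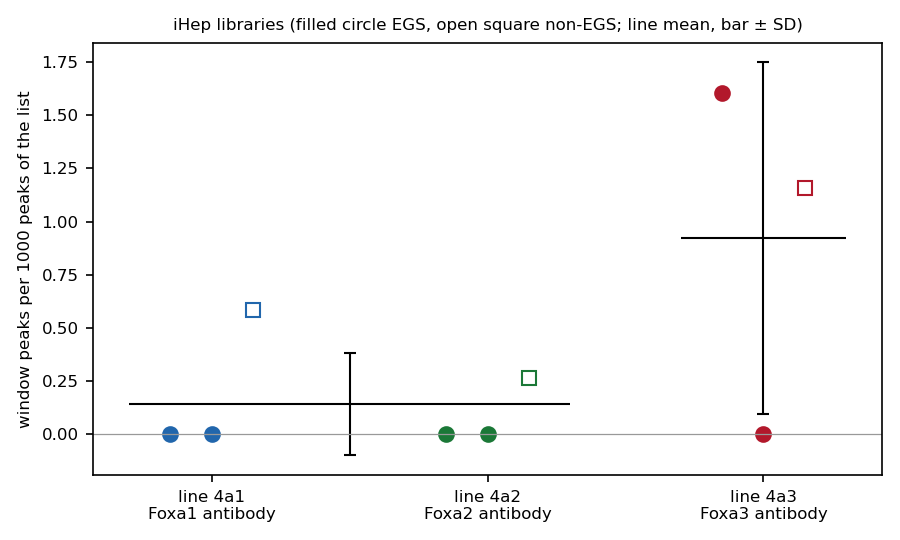
Window peaks per 1000 peaks of the list (y axis) in the 9 iHep Foxa libraries by line; filled circles are EGS and open squares non-EGS libraries, horizontal lines are the means of the 6 Foxa1 and Foxa2 and of the 3 Foxa3 libraries, and bars are ± SD. In Foxa3, 2 libraries lie above all others and 1 lies at 0.

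The library at 0, Foxa3 EGS replicate 3, has a list of 46 peaks with none on chromosome 4. At the share of the non-EGS list of its line it would hold 0.053 window peaks. At the share of the hepatocyte Foxa3 list, the value that chose the window, it would hold 1.60. Without it the difference was 1.24 per 1000 peaks and 0.138 percentage points of covered length, each with an exact permutation p of 0.036, the smallest that 28 assignments allow. Without EGS replicate 1 the difference was 0.438 per 1000 (exact permutation p = 0.25). Among EGS libraries alone it was 0.803, where only 1 of the 6 lists held peaks (exact permutation p = 0.33). With only 1 list above 0, these values could not give a lower p, so this comparison decides nothing. In raw numbers, not divided by list length, the Foxa3 lists held 1.50 peaks more on average (exact permutation p = 0.35).

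The other EGS lists at 0 are also shorter than the non-EGS list of their line. At the share of that list, the Foxa1 EGS lists would hold 0.548 and 0.316 peaks, the Foxa2 EGS lists 0.252 and 0.273, and the Flag list of line 4a3 1.02. The part of list length in these zeros was not tested. Most titles end in a code, and the labels do not say what it stands for. Where given, the codes differ between EGS and non-EGS libraries of a line. Whatever the code stands for cannot be told apart from EGS here. The 3 hepatocyte libraries share 1 code that no iHep library carries, so code and cell type cannot be told apart either. Foxa3 EGS replicate 1 shares its code with no other Foxa library, and the Foxa3 non-EGS library has no code. Code and factor therefore cannot be told apart for the Foxa3 lists with window peaks. Foxa3 EGS replicate 3 and Foxa1 EGS replicate 2 share a code, and both lists are at 0.

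Among stretches of 120 kb that held a peak of the same list, most iHep counts above 0 were ordinary. Stretches without a peak were left out, and the iHep lists at 0 are not covered. With the genome cut into stretches of 120 kb in phase with the window, 18.7% of the stretches with a Foxa1 non-EGS peak held at least 2, and 16.5% of those with a Foxa2 non-EGS peak held at least 3. For Foxa3, 23.2% of occupied stretches in EGS replicate 1 held at least 2 peaks and 7.97% in the non-EGS list held at least 5. In the hepatocyte Foxa3 list only 2 of 360 occupied stretches held at least 38 peaks, this window and 1 with 39. The hepatocyte and iHep Foxa3 lists thus differ in number of called peaks here, with 34.8 window peaks per 1000 in hepatocytes against 0 to 1.61 in line 4a3. The hepatocyte value chose the window, so the difference was not tested. It depends on how side-by-side peaks are counted. With peaks within 1 kb joined, the hepatocyte list held 2 regions in the window. Foxa3 EGS replicate 1 and Foxa3 non-EGS of line 4a3 also held 2 each, and Foxa3 EGS replicate 3 held 0.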

How the data were processed

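ChIP-seq peak lists of 14 libraries were analysed. For the 10 inputs no file was used. The submitters' processing notes name bedtools 2.16.2, MACS2 2.1.0, BWA 0.6.2 and the build mm9 without roles or settings. Each deposited list gives, per peak, a position and the authors' score, whose scale is not stated. The Flag list of line 4a3 starts at a score of 50.0 and the others just above 5, so scores only rank peaks within a list. Each file belongs to 1 library. Read depth is unknown.

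Starts were written 1-based. Sharing means at least 1 bp of overlap. Runs join peaks within 3 kb. Shared blocks (4) join hepatocyte peaks within 10 kb and hold at least 3 peaks in 2 or more hepatocyte lists. Libraries were compared by exact permutation, with intervals by Clopper-Pearson (Python 3.11.15, numpy 2.4.6, pandas 2.3.3, scipy 1.17.1), tested on simulated data. Peaks given one by one were the highest, widest, first and last of the run, all iHep peaks of lists with 5 or fewer, and regions in 3 or more lists. The planned EGF receptor gene list needs mm9 annotation and was not analysed here. The window, tests and lists were chosen with earlier results of these data known.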

Additional observations from a re-analysis of the deposited data

How the results depend on the processing

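The excess of window peaks in Foxa3 lists of line 4a3 kept its direction in all 16 alternatives per 1000 peaks (0.438 to 1.39, exact permutation p from 0.036 to 0.33), in all 16 by covered length (0.058 to 0.138 percentage points, exact p from 0.036 to 0.33) and in raw numbers (1.50 peaks, exact p = 0.35). Among these alternatives, permuting within EGS and non-EGS or within culture numbers changes only the p-value, so the direction there was fixed. Counting the run in place of the window may favour Foxa3, since hepatocyte Foxa3 peaks define the run. Leaving out 1 library gave 0.438 to 1.24 and 0.058 to 0.138. Only without the Foxa3 list of 46 peaks did either pass the threshold. Permuted within culture numbers (replicate block), the differences were 0.780 and 0.088, with exact p = 0.067, the smallest that 15 assignments allow. Foxa3 EGS replicate 3, the Foxa3 list without window peaks, is the only Foxa library with its culture number. This scheme therefore never exchanges it, which makes the smallest p easier to reach. The labels do not say that a number pairs cultures of different lines. The share of hepatocyte peaks found in line 4a3, 13.2%, lay between 5.26% and 15.4% in 6 alternatives (5.26% to 13.2% when 1 library was left out) and moved to 50% when peaks within 1 kb were merged, which leaves 2 hepatocyte regions. Depth is unknown.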
